A study of Homo sapiens with 6 samples.

Results

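The myeloid lineage transcription factors described here are 9 genes: SPI1, CEBPA, CEBPB, CEBPD, CEBPG, KLF4, IRF8, POU2F2 and RUNX1. They were picked by name, with earlier results of these data known. A further condition was that a gene has values in at least 4 of the 6 deposited tables. All 9 met it, of 60325 gene rows, and each had a value in all 6 libraries. All 9 also entered the tests, which ran over 13491 genes. The cells were THP-1, an established human monocytic leukaemia line used as a model of monocytes. Control cells (labelled ctrl) and cells given human recombinant interleukin-6 (IL-6) were harvested for total RNA at 6, 24 and 48 h, with 1 RNA-seq library for each of the 6 conditions. Neither the IL-6 dose nor what the controls received was given in the sources used here. No group carries a genetic change relative to another, and all come from the same leukaemic line, so the results apply to that line.

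These factors set and keep the myeloid fate. PU.1, the product of SPI1, opens myeloid enhancers together with RUNX1. The C/EBP factors, basic leucine zipper proteins that bind DNA as dimers, act on many of the same enhancers. IRF8 and KLF4 act later, on the choice of the monocyte over the granulocyte path, and KLF4 promotes monocyte differentiation. OCT2, the product of POU2F2, binds the octamer motif and is best known from B cells, although monocytes and macrophages make it too. IL-6 signals through gp130 and the JAK kinases to the transcription factor STAT3.

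The deposited values are log2 values centred by the authors on each gene, so a value of 0 is the gene's own mean over the 6 libraries and a log2 difference of 1 is a 2-fold difference. The number of genes with a value ran from 22000 to 23108 per library, and the read depth is unknown because the tables hold no counts. Of 11 markers of monocytic cells, all 11 had values in every library. Some markers of other cells had no value in any library. They included CD3E (T cells) and MS4A1 and BLK (B cells). HBB, ALAS2, PF4 and PPBP (red cells and platelets) and CDH1 and COL1A2 (epithelium and fibroblasts) were also among them. Other such markers did have values. All 6 libraries had one for 2 of 10 T and NK cell markers and 4 of 6 B cell markers. The same held for 2 of 8 markers of red cells and platelets and 3 of 8 of epithelium and fibroblasts. In bulk RNA, fewer cells of a type and less RNA per cell cannot be told apart.

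POU2F2 was the only member whose rise with IL-6 passed an adjusted p of 0.05. At 6, 24 and 48 h its log2 values were -1.08, -0.62 and -0.43 in the controls, and -0.05, 0.91 and 1.27 in the IL-6 libraries. The lowest IL-6 library lay above the highest control library, and in both arms the 6 h library was the lowest of the 3. Over the 3 time-matched pairs POU2F2 rose with IL-6 by 1.42 ± 0.23 (log2), or 2.68-fold (limma adjusted p = 0.0343). The value after ± here and below is limma's standard error with a shrunken variance. Over all genes tested 0.252% rose and 0.00741% fell with IL-6 at an adjusted p under 0.05 (34 genes and 1 gene, together 0.259%), and POU2F2 was the 1 called gene among the 9 members. The ratio of IL-6 to control was 2.04-fold at 6 h, 2.89-fold at 24 h and 3.26-fold at 48 h. A rise of 2-fold or more at all 3 times was seen in 0.289% of the genes tested, and among the members in POU2F2 alone. Each of these ratios compares 1 library with 1 other and has no replicate check. The POU2F2 call is near the threshold. Leaving out the 24 h pair (limma adjusted p = 0.252) or the 48 h pair (0.101) ended it, as did a fit with no variance trend on level (0.475), no level filter (0.0824), non-robust shrinkage (0.0727) or no time term (0.809). The estimate was between 1.22 and 1.62 in all 11 alternatives.

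**Figure D1:**
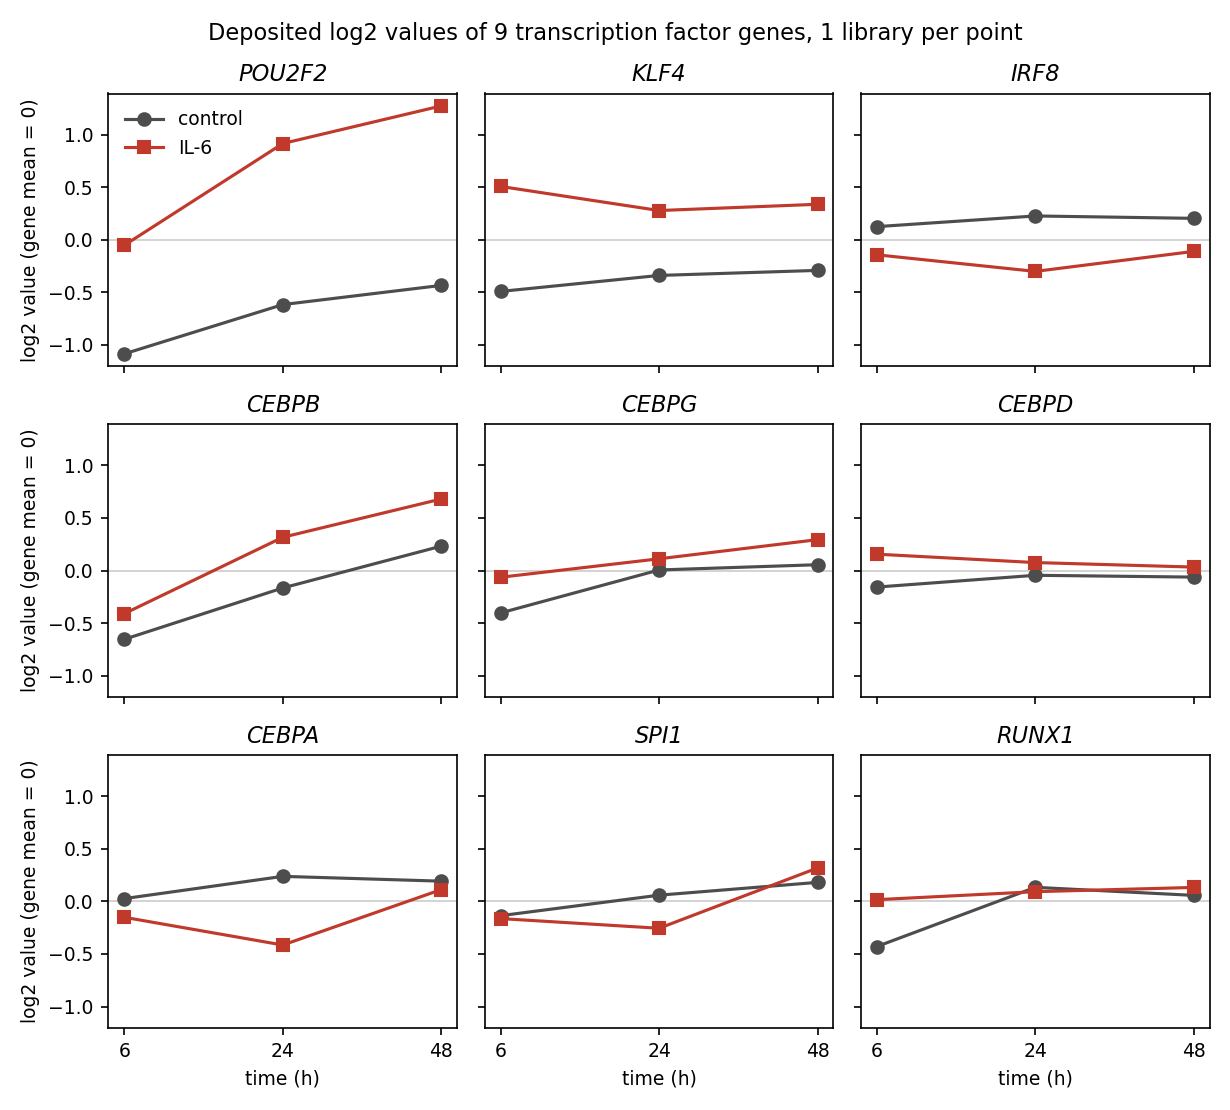
Log2 values (vertical axis, deposited scale, gene mean at 0) of the 9 genes at 6, 24 and 48 h (horizontal axis), with grey circles for control and red squares for IL-6 and 1 library per point. The IL-6 points of POU2F2, KLF4 and CEBPD lie above all control points and those of IRF8 below them, and CEBPB climbs with time in both arms.

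POU2F2 (ENSG00000028277.22) lies on chromosome 19 from 42086110 to 42196585 on the minus strand of GRCh38, and the value covers the whole gene. It overlaps long non-coding RNA genes on the other strand that have values, and the library kits do not mark the strand, so reads of the overlap cannot be assigned. POU2F2-AS1 had log2 values of -1.07, 0.22 and -0.63 in the controls and -0.09, 0.61 and 0.96 with IL-6, at 6, 24 and 48 h. It was thus also higher with IL-6 at each time, and its part in the rise of POU2F2 was not tested. The other overlapping RNA gene, ENSG00000259436, had log2 values of -0.19, 0.51 and 0.57 in the controls and -3.91, 0.38 and 2.64 with IL-6. It was lower with IL-6 at 6 and 24 h and higher at 48 h.

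Levels given here have an arbitrary unit, and whether they are per gene length was not settled, so they are compared between libraries and not between genes. They could be worked out because the deposited values of most genes are related as whole numbers of a fixed step. For POU2F2 they were 2.77, 3.83 and 4.35 in the controls of 6, 24 and 48 h and 5.67, 11.1 and 14.2 with IL-6. Since OCT2 is a B cell factor, markers of B cells were read beside it. Of 6 such markers 4 had values in all libraries and 2 passed the filter. Of these 2, 1 had a positive and 1 a negative IL-6 estimate, with a median of 0.008 (log2), and neither was called. CD79B, the negative one, had an IL-6 difference of -0.27 ± 0.32 on the log2 scale (limma adjusted p = 0.871). MS4A1 and BLK had no value in any library. Of 10 markers of T and NK cells 2 passed the filter, NKG7 (0.65 ± 0.14) and IL7R (3.09 ± 0.73), neither of which passed the test (limma adjusted p = 0.164 and 0.277). No level was recovered for NKG7. That of IL7R was 0.13 to 1.06 in the controls and 1.70 to 7.51 with IL-6. The other 8 markers lacked a value in at least 1 library, and 3 of them, CD3E and CD2 included, had none at all. The part of these markers in the POU2F2 result was not tested. POU2AF1, the gene of the coactivator that B cells pair with OCT2, had no value in any library. POU2F1, which encodes the widely made relative OCT1 and was picked for mention after its values were seen, stood at -0.42 ± 0.17 (limma adjusted p = 0.479).

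The region before the start of POU2F2 is shown because POU2F2 was the member called for IL-6. It is the stretch of 218 bases at chr19:42132479-42132696 (minus strand), taken from the window of 250 bases before the gene start in the RefSeq table (GRCh38.p14), without the 32 bases next to the start that are annotated as UTR. It is written 5′ to 3′ on the strand of the gene, and capitals mark matches to the motifs searched. The deposited gene model extends further upstream than this start, so it is not the only one.
POU2F2: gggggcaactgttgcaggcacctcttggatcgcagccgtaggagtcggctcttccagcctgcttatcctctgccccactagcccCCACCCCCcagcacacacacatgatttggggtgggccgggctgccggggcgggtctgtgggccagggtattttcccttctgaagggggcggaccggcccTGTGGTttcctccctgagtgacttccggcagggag

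Windows of 250 bases before the start were found for 7 of the members, 10 windows in all, some of which overlap, and none was used for SPI1 and CEBPD. Both strands were searched for 7 motifs. In the POU2F2 window the capitals are 1 match to the RUNX motif TGTGGT, at -67 to -62 from the start, and 1 match to the KLF motif GGGNGTGG, read on the other strand, at -166 to -159. TGTGGT is in 11% of all 35116 windows of this length and in 2 of the 10 member windows, for IRF8 and POU2F2. GGGNGTGG is in 15.7% of all windows and in 4 of the 10, for CEBPG, POU2F2, CEBPB and RUNX1. The STAT motif TTCNNNGAA (6.57% of all windows), the C/EBP motif TTGCNNAA (9.05%) and the PU.1 motif GAGGAAG (11.2%) were in none of the 10. The octamer ATGCAAAT (1.63%) and the interferon response element (GAAA, any 2 bases, GAAA; 3.02%) were in none of them either. A match is a run of letters and does not show binding.

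KLF4 had the next highest estimate. Its log2 values were -0.49, -0.34 and -0.29 in the controls of 6, 24 and 48 h and 0.51, 0.28 and 0.34 with IL-6. The groups did not overlap, and the 3 values of each arm were close together. KLF4 had a log2 difference of 0.75 ± 0.30, or 1.68-fold, which missed the threshold (limma adjusted p = 0.479). In the pair of 24 h it was 1.53-fold and in that of 48 h 1.55-fold higher with IL-6, beside a log2 ratio of 0.998 at 6 h. KLF4 (ENSG00000136826.15, chromosome 9 from 107484852 to 107490482, minus strand) had recovered levels of 2.18 to 2.50 in the controls and 3.71 to 4.35 with IL-6. Without the variance trend on level the standard error of KLF4 was 0.15 (limma adjusted p = 0.555).

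IRF8 lay in the other direction. Its log2 values were 0.12, 0.23 and 0.20 in the controls of 6, 24 and 48 h, against -0.14, -0.30 and -0.11 with IL-6. All 3 IL-6 libraries were below all 3 controls. IRF8 had a log2 difference of -0.37 ± 0.11, a ratio of 0.774, which missed the threshold (limma adjusted p = 0.306). IRF8 (ENSG00000140968.11) lies on chromosome 16 from 85899162 to 85922606 on the plus strand. Its estimate stayed between -0.42 and -0.29 in all 11 alternatives, and none of them gave a call.

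Of the 9 members, 3 had all IL-6 libraries above all controls (POU2F2, KLF4 and CEBPD), 1 had them all below (IRF8), and 5 had overlapping groups. Over all genes tested, 3.51% had IL-6 libraries all above and 5.71% all below. The sign was the same in all 3 pairs for 7 members, 5 higher (12.5% of all genes) and 2 lower (18.2%). An unadjusted p under 0.05 for the IL-6 effect was reached by 5 members (POU2F2, KLF4, CEBPB, IRF8 and CEBPA), beside 9.07% of all genes. A positive estimate was found for 6 of the 9, beside 44% of all genes, and the median log2 difference was 0.18 for the members and -0.03 for all genes tested. With so few members, and with members chosen with earlier results of these data known, these counts are a description.

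**Figure D2:**
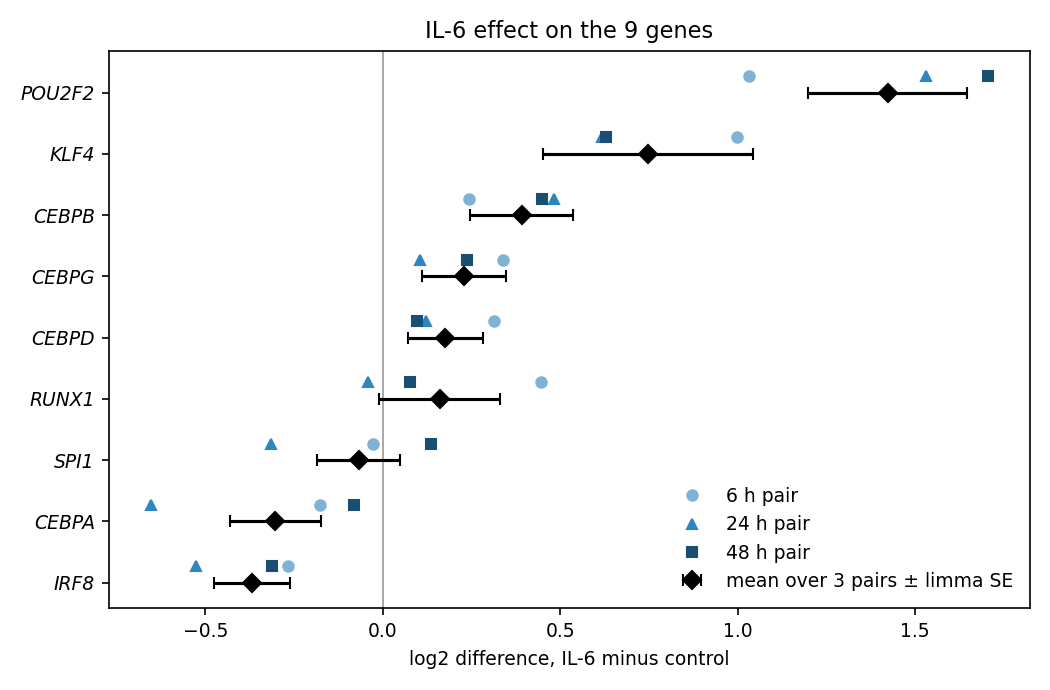
Log2 difference of IL-6 minus control (horizontal axis) for each gene, with the mean over the 3 pairs as a black diamond, its limma standard error as a bar, and the 6, 24 and 48 h pairs as blue circles, triangles and squares. POU2F2 stands highest at 1.42, the 3 ratios of IRF8 are all below 0, and those of SPI1 and RUNX1 lie on both sides of 0.

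The C/EBP genes differed in direction. CEBPB, an activating member long tied to inflammatory and acute phase genes, had log2 values of -0.65, -0.17 and 0.23 in the controls and -0.41, 0.32 and 0.68 with IL-6. It was higher with IL-6 in each pair, by 0.24, 0.48 and 0.45, yet the arms overlapped, and in both the value was higher at each later time. The IL-6 difference was 0.39 ± 0.14 and did not pass (limma adjusted p = 0.433). CEBPD, another activator that is quickly induced in acute responses, had control values of -0.16, -0.05 and -0.06 and IL-6 values of 0.16, 0.08 and 0.03. The arms were separate but 0.31 apart from end to end, and the difference of 0.18 ± 0.11 did not pass (limma adjusted p = 0.678). Without the 6 h pair the CEBPD estimate was 0.11. CEBPG lacks an activation domain and pairs with other leucine zipper proteins. It had control values of -0.40, 0.01 and 0.06 and IL-6 values of -0.06, 0.11 and 0.29, with overlapping arms and a difference of 0.23 ± 0.12 (limma adjusted p = 0.614). On GRCh38 CEBPG (ENSG00000153879.9) lies on chromosome 19 from 33373685 to 33382686 on the plus strand, near CEBPA (ENSG00000245848.3), from 33299934 to 33302534 on the minus strand.

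CEBPA, the C/EBP factor of granulocyte and monocyte progenitors, was lower with IL-6 in each pair. Its log2 values were 0.03, 0.24 and 0.19 in the controls and -0.15, -0.42 and 0.11 with IL-6. The 24 h IL-6 library was the lowest and the 48 h one lay within the control range, so the arms overlapped. The log2 difference was -0.30 ± 0.13 and did not pass (limma adjusted p = 0.522). It rests mostly on the 24 h pair, where the log2 ratio was -0.65 against -0.18 at 6 h and -0.08 at 48 h, and without that pair the estimate was -0.13. Long non-coding RNA genes overlap CEBPA on the other strand (ENSG00000267580 and ENSG00000267727), and the first of these had a log2 value of 0.90 in the 24 h IL-6 library, its highest.

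SPI1 and RUNX1 had IL-6 ratios of both signs. SPI1 had control values of -0.14, 0.06 and 0.18 and IL-6 values of -0.16, -0.26 and 0.32, and its difference was -0.07 ± 0.12 (limma adjusted p = 0.910), and 0.055 without the 24 h pair. RUNX1 had control values of -0.43, 0.13 and 0.06 and IL-6 values of 0.02, 0.09 and 0.13. The 6 h control was its lone low library, and the IL-6 difference was 0.16 ± 0.17 (limma adjusted p = 0.849). Without the 6 h pair the RUNX1 estimate was 0.017. SPI1 (ENSG00000066336.12) lies on chromosome 11 from 47354860 to 47378547 and RUNX1 (ENSG00000159216.19) on chromosome 21 from 34787801 to 36004667, both on the minus strand. At 24 h the median gene was itself lower with IL-6 by a log2 ratio of -0.07, against 0.02 at 6 h and -0.04 at 48 h, and SPI1, CEBPA and IRF8 each had their lowest ratio there.

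The effect at 24 and 48 h was also tested against that at 6 h, with 1 residual degree of freedom. By limma 0 of the 9 members passed, beside 0.208% of all genes at an adjusted p and 4.04% at an unadjusted p under 0.05. POU2F2 had the lowest p among the members, 0.275, with a later effect 0.59 ± 0.53 above that at 6 h (limma adjusted p = 1). Only 1 pair stands behind each 6 h effect, and a change of that size was not detectable.

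CEBPB was the only member whose rise with culture time passed an adjusted p of 0.05. Culture for 48 h against 6 h raised CEBPB by 0.99 ± 0.18 (log2) over both arms, or 1.98-fold (limma adjusted p = 0.0166), by 0.89 in the controls and by 1.09 with IL-6. At 48 h against 6 h, 4.11% of all genes were called, 2.56% higher and 1.55% lower, and CEBPB was the 1 member called. An unadjusted p under 0.05 was reached by 4 members (CEBPB, POU2F2, CEBPG and SPI1), beside 21.7% of all genes. The call was lost without the variance trend (limma adjusted p = 0.205) and held in the 7 other alternatives run. In recovered level CEBPB went from 13.3 to 18.7 and 24.6 in the controls and from 15.8 to 26.1 and 33.5 with IL-6. CEBPB (ENSG00000172216.6) lies on chromosome 20 from 50190830 to 50192668 on the plus strand. CEBPB-AS1 overlaps it on the other strand at a mean level of 0.51, under the filter.

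POU2F2 had a 48 h estimate of the same size, 0.99 ± 0.28, with a larger error (limma adjusted p = 0.0760). It passed with a level filter of 5 (0.0483) and with the library factors, offsets worked out here from the values, removed (0.0470). The increase from 6 to 48 h was 0.65 in the controls and 1.32 with IL-6. CEBPG (0.41 ± 0.14), SPI1 (0.40 ± 0.14), RUNX1 (0.30 ± 0.21) and CEBPA (0.21 ± 0.16) had positive 48 h estimates, and IRF8 (0.06 ± 0.13), KLF4 (0.02 ± 0.36) and CEBPD (-0.01 ± 0.13) had estimates near 0. None of these 7 passed. In the control arm all 9 members were higher than at 6 h at 24 h, beside 64.1% of all genes tested and a median gene at 0.15, and at 48 h, beside 58.6% and a median of 0.087. CEBPD (0.11) and IRF8 (0.10) lay below the median gene at 24 h, and IRF8 (0.079) lay below it at 48 h. In the IL-6 arm 4 of 9 were higher at 24 h (55.5% of all genes) and 7 of 9 at 48 h (53.7%). All these differences share the 6 h libraries. Over both arms the median gene was higher than at 6 h by 0.11 at 24 h and 0.07 at 48 h.

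**Figure D3:**
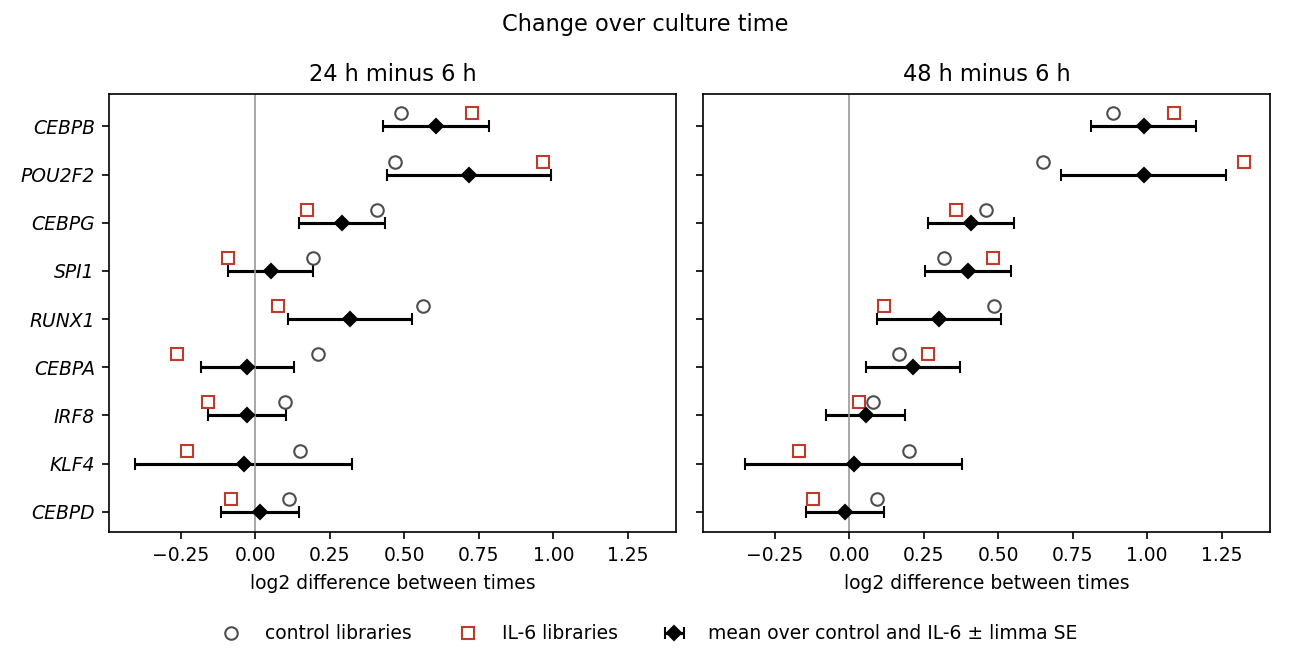
Log2 difference from 6 h (horizontal axis) at 24 h (left) and 48 h (right), with the mean over both arms as a black diamond, its limma standard error as a bar, and the control and IL-6 arms as open grey circles and open red squares. CEBPB and POU2F2 lie furthest right at 48 h, both at 0.99, and KLF4 and CEBPD stay near 0.

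At 24 h against 6 h, where 2.02% of all genes were called, 1.73% higher and 0.296% lower, no member passed by limma. An unadjusted p under 0.05 was reached by 17.7% of all genes and by 2 members, CEBPB (0.61 ± 0.18) and POU2F2 (0.72 ± 0.28). At 48 h against 24 h, where 0.511% of all genes were called, 0.0964% higher and 0.415% lower, no member passed by limma either. SPI1 alone had an unadjusted p under 0.05, with a difference of 0.35 ± 0.14, beside 11.9% of all genes. With equal library medians the split of called genes moved from 233 higher and 40 lower to 152 and 73 at 24 h against 6 h, and from 346 and 209 to 296 and 304 at 48 h against 6 h. With the library factors removed it was 669 and 187 at 48 h against 6 h, and 17 and 38 at 48 h against 24 h in place of 13 and 56.

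Levels were recovered for 5 members. In the controls KLF4 was at 2.18 to 2.50, POU2F2 at 2.77 to 4.35, RUNX1 at 11.3 to 16.6, CEBPB at 13.3 to 24.6 and CEBPG at 36.6 to 50.2. With IL-6 KLF4 was at 3.71 to 4.35, POU2F2 at 5.67 to 14.2, RUNX1 at 15.3 to 16.6, CEBPB at 15.8 to 33.5 and CEBPG at 46.2 to 59.2. The IL-6 and control ranges were apart for KLF4 and POU2F2 and overlapped for RUNX1, CEBPB and CEBPG. No level was recovered for SPI1, CEBPA, CEBPD and IRF8. The search ended at a level of 100, and such genes were treated as high.

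**Figure D4:**
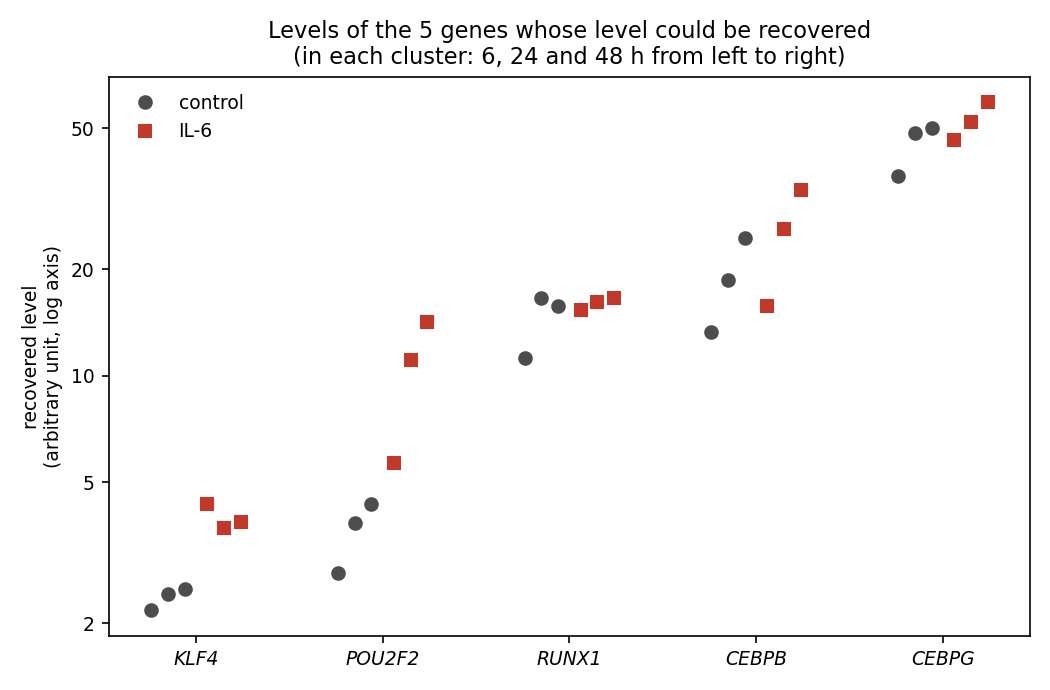
Recovered level in an arbitrary unit (vertical log axis) of the 5 genes with a recovered level, with grey circles for control and red squares for IL-6 libraries, each at 6, 24 and 48 h from left to right. On the log axis, that is as a ratio, POU2F2 spans the widest range, from 2.77 to 14.2, and the RUNX1 points lie within 11.3 to 16.6.

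Some genes ran closely with a member over the 6 libraries, as measured by Pearson's r on log2 values among 7556 genes (7557 for KLF4 and POU2F2) with a mean level of at least 10 or treated as high. With 6 points that share the same libraries such r values are a description. POU2F2 was nearest to ACSL1, an acyl-CoA synthetase gene (r = 0.99), XRN2 (0.99) and ARRDC4 (0.98), and 30 genes had an r over 0.95 with it. Of these 3, ARRDC4 itself rose with IL-6 (log2 difference 1.10, limma adjusted p = 0.0255). KLF4 was nearest to METTL7B (r = 0.97), which rose with IL-6 by 1.32 (limma adjusted p = 0.000419), then to JTB (0.97) and DTNBP1 (0.96). Among the genes nearest to CEBPB were the alanine transaminase gene GPT2 and the mitochondrial folate enzyme gene MTHFD2 (each r = 0.99). IRF8 was nearest to FUT4, to TET2, which encodes a DNA demethylating enzyme, and to CAND1, at r of 0.99 or more.

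The other members had near patterns too. SPI1 was nearest to FMNL1, RNF220 and RILPL2, CEBPA to ARIH2, TBRG4 and HPS6, and CEBPG to MFSD2A, RAB10 and TRIM25. RUNX1 was nearest to SART3, SHFL and PLPP5, and CEBPD less closely to DDX21 (r = 0.97), TMEM33 (0.96) and GNG10 (0.95). CEBPD had 2 genes over an r of 0.95 and CEBPB had 61. Between members the highest r were 0.95 for KLF4 with CEBPD and 0.93 for CEBPB with CEBPG, and the lowest was -0.86 for KLF4 with IRF8.

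Among 20 partners and regulators of the members, 17 were tested. None passed for IL-6 by limma, and 5 had an unadjusted p under 0.05, beside 9.07% of all genes. Their median log2 difference was -0.09, and 7 were positive. ATF4, a stress factor that dimerises with C/EBP proteins, had an IL-6 difference of 0.38 ± 0.11 (limma adjusted p = 0.306) and rose over both arms by 0.64 at 24 h and 1.28 at 48 h against 6 h, the 1 gene of the list called over time. The largest IL-6 estimates at a level of at least 5 were those of BATF3 (0.63 ± 0.15, limma adjusted p = 0.197), a partner of IRF8, and CBFA2T3 (-0.43 ± 0.15, adjusted p = 0.413), a RUNX corepressor family gene. CBFB, whose product pairs with RUNX1 and does not itself bind DNA, was at -0.09 ± 0.12, beside 0.16 for RUNX1.

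Of 35 other haematopoietic transcription factor genes 27 were tested. None passed for IL-6 by limma, and 2 had an unadjusted p under 0.05, beside 9.07% of all genes. Of these 27, 11 had a positive estimate, and the median was -0.08. Among those at a level of at least 5 or treated as high, IRF7, a factor of the interferon response, had the largest estimate (0.58 ± 0.20, limma adjusted p = 0.395). IRF5, with no recovered level, had the next (-0.45 ± 0.12, limma adjusted p = 0.253). From 6 to 48 h 4 rose and none fell, beside 2.56% and 1.55% of all genes: IRF7 (1.59), the immediate early gene NR4A1 (3.64), KLF2 (3.03) and KLF6 (0.98). IRF7 had also risen at 24 h (1.32). KLF2 and NR4A1 had mean levels of 1.29 and 1.94, near the filter. Both KLF2 and KLF6 belong to the family of KLF4, whose own 48 h difference was 0.02.

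Genes that these factors are known to control were read beside them. Of 13 early myeloid genes 12 were tested, and none passed for IL-6 by limma. An unadjusted p under 0.05 was reached by 5, beside 9.07% of all genes, and the median was -0.28 with 3 of 12 positive. The receptor kinase gene FLT3 (-0.56 ± 0.14, limma adjusted p = 0.246) and the cathepsin G gene CTSG (-0.50 ± 0.13, adjusted p = 0.254) had the largest estimates at a level of at least 5 or treated as high. No level was recovered for CTSG. Against 6 h RNASE3 rose at 24 h (0.68) and 48 h (0.63), and at 48 h CSF3R rose (0.83) and MS4A3 fell (-0.71).

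Of 27 monocyte genes 22 were tested. With IL-6 3 rose and none fell: the proteoglycan gene VCAN (2.03 ± 0.26), the calgranulin gene S100A8 (1.78 ± 0.18) and the Fc receptor gene FCGR1A (0.65 ± 0.10), which has near-identical copies that can share its reads. All the same the list median was -0.15, and 10 of 22 had a positive estimate. In 7 genes all IL-6 libraries were above all controls and in 3 they were all below, beside 3.51% and 5.71% of all genes tested. Called for IL-6 were 0.252% of all genes as higher and 0.00741% as lower. CD14 (2.07 ± 0.85) and S100A12 (2.04 ± 0.73) had estimates like that of VCAN with larger errors, and missed the threshold (limma adjusted p = 0.672 and 0.617). In the other direction NCF1 was lower with IL-6 in each pair (-1.01 ± 0.18), with overlapping arms, and also missed it (limma adjusted p = 0.0743). From 6 to 48 h LYZ (-1.78) and TYROBP (-0.69) fell, while CSF2RA (1.46) and NCF1 (1.36) rose. LYZ also fell from 24 to 48 h, and NCF1 had risen by 24 h (1.02).

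Genes known to respond to IL-6 and STAT3 were read last. Of 10 such genes 8 had a positive estimate, beside 44% of all genes, and the median was 0.61. A rise was called for 4 (0.252% of all genes): PIM1 (2.67 ± 0.18), BCL3 (2.48 ± 0.15), IFITM1 (1.25 ± 0.17) and STAT3 (0.78 ± 0.12). The rise of POU2F2 was thus smaller than those of PIM1 and BCL3, and larger in estimate than that of STAT3, differences that were not tested. BCL3 also rose from 6 to 48 h (1.47), as did IFITM1 (1.63), which had risen by 24 h too (1.28). These lists were drawn up with earlier results of these data known, so their counts are not independent evidence of a direction.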

How the data were processed

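Total RNA of THP-1 cells was amplified with a SMART-seq kit and made into libraries with Nextera XT, per the labels' protocols, and the genome build was GRCh38 (hg38), per the submitters' processing notes. No aligner, counting program or normalization was given in the sources used here. The deposited log2 values were centred on each gene by the authors and come without counts.

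Levels were recovered for 15449 of 17388 genes with 6 values (88.8%) by matching the values, after 1 offset per library, to whole numbers of a step set at 0.001, up to a level of 100 and with a misfit of at most 2.5e-07 (log2). The 1939 other genes, SPI1, CEBPA, CEBPD and IRF8 among them, were treated as high and can include low genes. The lowest percentile of levels was 0.0867 for genes of 250 to 500 bases, 0.0263 up to 1000 and 0.0125 up to 2000, then 0.0155 and 0.0179 for longer genes, which does not settle whether levels are per length.

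limma 3.58.1 (R 4.3.3) was fitted to the log2 values of the 13491 genes whose mean level was 1 or more or not recovered, with time and agent as terms, robust empirical Bayes and a variance trend on level. It had 2 residual and a median of 8.17 prior degrees of freedom. Benjamini-Hochberg adjustment ran over all genes tested (threshold 0.05). Conditions were not repeated and the labels name no separate cultures, so p-values cover the spread between these libraries alone, which may be technical. In this fit that spread is the disagreement of the 3 IL-6 to control ratios between times. A real change of the IL-6 effect with time therefore counts as error too. An exact sign-flip test on 3 pairs cannot go below p = 0.25 and was not used. The recovery and the fit were also run on simulated data. For the fit the simulated noise was independent between libraries, so it does not address the lack of replicates.

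All 9 members are named, and of each other list the genes past the threshold plus the 2 of the rest with the largest IL-6 estimate. These 2 were taken from genes at a level of at least 5 or treated as high. For likeness the 3 genes of highest r are named. A few genes that these rules or the marker lists cover are not reported here. The members and lists were chosen with earlier results of these data known. Alternatives changed the variance trend, shrinkage, level filter, pseudocount (log2 of level + 1), library scaling, time term and pairs used.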

Additional observations from a re-analysis of the deposited data

How the results depend on the processing

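The IL-6 effect called 35 genes. The count was 15 with non-robust shrinkage, 13 with no level filter, 4 with no time term and 0 without the variance trend (1082 at an unadjusted p under 0.05 by limma), and 14 to 127 when 1 pair was left out, the extremes being the fits without the 24 h and the 6 h pair. At 24 h against 6 h the 273 calls became 164, 144 and 0 with non-robust shrinkage, no level filter and no trend (1912 unadjusted by limma), 411 with a filter of 5 and 649 without the 48 h pair. At 48 h against 6 h 555 became 326, 264 and 0 (2259 unadjusted by limma), and 856 with the library factors removed, an alternative chosen after seeing the data. At 48 h against 24 h 69 became 9, 9 and 0 (1248 unadjusted by limma), 136 with a filter of 5 and 211 without the 6 h pair. The cause was not tested. Of the members' estimates, 292 of the alternative values kept direction and call, 7 lost the call (6 for POU2F2 with IL-6 and 1 for CEBPB at 48 h), 2 gained it (POU2F2 at 48 h) and 10 changed sign, all of them near 0 and none called. SPI1 for IL-6 ranged from -0.17 to 0.055 when 1 pair was left out, the latter without the 24 h pair. With equal library medians the 24 h against 6 h values of SPI1 (-0.049) and CEBPD (-0.084), the 48 h against 6 h values of KLF4 (-0.048) and IRF8 (-0.0074), and the 48 h against 24 h values of CEBPD (0.0071) and RUNX1 (0.019) changed sign. With the library factors removed CEBPD at 48 h against 6 h (0.087) and against 24 h (0.079) and RUNX1 at 48 h against 24 h (0.091) did so. By Spearman's rho the nearest patterns were less alike for KLF4 (METTL7B, 0.83) and RUNX1 (SART3, 0.66). KLF4, at a level under 5, gave no value with the filter of 5. The read depth is unknown, and the lack of replicate libraries limits every value.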
